A study of Mus musculus with 9 samples.

Results

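A set of 10 genes of the NF-kB pathway was followed in primary mouse skin fibroblasts. They are the 3 subunit genes Nfkb1, Nfkb2 and Relb, the 5 inhibitor and feedback genes Nfkbia, Nfkbie, Nfkbiz, Tnfaip3 and Birc3, and the 2 adhesion genes Icam1 and Vcam1. They were matched by symbol, and all 10 were found among the 55401 genes of the deposited table and passed the filter on low values. The set was chosen with earlier results of these data known. The cells came from skin fragments of newborn wild-type mice and were grown in DMEM plus 10% fetal bovine serum. RNA was sequenced from 9 libraries in 3 groups of 3: fibroblasts given lipid-depleted TCM, fibroblasts given TCM, and control fibroblasts. TCM, tumor-conditioned medium, was DMEM with 10% serum in which YUMM1.7 melanoma cells of mouse origin had grown for 24 h, and the lipid-depleted form was TCM passed through the lipid-adsorbing reagent Cleanascite. The labels do not give the medium of the control cells, the length of the treatment, or a group given reagent-treated medium without tumor cells. Nor do they say whether the replicates are separate cultures or animals. The p-values therefore cover the spread among these 9 libraries only, which may be technical.

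NF-kB is a family of dimeric transcription factors that IkB proteins hold in the cytoplasm of resting cells. Signals from receptors of the TNF, interleukin 1 and Toll-like families activate the IkB kinases, the IkB protein is degraded, and the dimer enters the nucleus. Among its targets are the genes of its own inhibitors, which close a feedback loop, and adhesion molecules through which fibroblasts and endothelial cells bind leukocytes.

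The values are normalized counts, which are reads per gene divided by 1 size factor per library. The libraries held 51015024 to 64965906 reads once whole reads were recovered, and the lowest value of any member in any library was 141 normalized counts, for Nfkbie in control. The TCM libraries varied most among themselves, with a root mean square deviation from their group mean of 0.115 to 0.169 on the log2 scale, against 0.0804 to 0.0893 in lipid-depleted TCM and 0.0837 to 0.101 in control. All 10 fibroblast markers passed the filter, and in TCM against control 4 of them rose and 4 fell. Pdgfra averaged 24784 in lipid-depleted TCM, 37493 in TCM and 13768 in control, whereas Col1a1 averaged 391091 in lipid-depleted TCM, 272808 in TCM and 927289 in control. The summed level of the 10, most of it from 3 collagen genes, was 1637492 to 1692442 normalized counts in lipid-depleted TCM, 1240704 to 1455161 in TCM and 2433318 to 2502301 in control. The leukocyte marker Ptprc had at most 3.19 and the endothelial marker Pecam1 at most 13.2 normalized counts in any library. Other markers of these types were higher. The 10 leukocyte markers summed to 255 to 474 and the 10 endothelial markers to 401 to 542 normalized counts per library.

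Promoter windows, from 250 bases before to 50 bases after a transcription start, were found in RefSeq (GRCm38.p6) for 6 of the 10 members, with 9 starts in all. They are shown because 4 of these genes hold the letters of the NF-kB site close to a start, in capitals on either strand below. The motif searched was the kB consensus, on both strands. It was found in 6 of the 9 windows and in 4 of the 6 genes, Nfkbia, Tnfaip3, Nfkbie and Nfkb2, and in 4.51% of all 32851 promoter windows. The windows of Icam1 and Birc3 held no match, which says only that these letters are not in this window. One window per gene is printed, each 5′ to 3′ on the strand of the gene.
Nfkbia, chr12:55492598-55492897, minus strand: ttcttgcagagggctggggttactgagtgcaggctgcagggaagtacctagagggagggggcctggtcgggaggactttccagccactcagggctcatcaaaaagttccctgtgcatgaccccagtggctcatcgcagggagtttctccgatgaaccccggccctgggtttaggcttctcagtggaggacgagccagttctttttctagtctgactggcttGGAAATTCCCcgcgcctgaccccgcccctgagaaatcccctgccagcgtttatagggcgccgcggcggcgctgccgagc
Tnfaip3, chr10:19015361-19015660, minus strand: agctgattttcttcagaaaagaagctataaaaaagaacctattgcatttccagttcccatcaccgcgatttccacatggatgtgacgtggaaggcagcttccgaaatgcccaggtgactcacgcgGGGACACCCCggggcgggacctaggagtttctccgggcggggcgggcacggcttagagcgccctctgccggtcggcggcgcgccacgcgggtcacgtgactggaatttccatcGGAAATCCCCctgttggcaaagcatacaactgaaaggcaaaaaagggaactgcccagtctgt
Nfkbie, chr17:45555450-45555749, plus strand: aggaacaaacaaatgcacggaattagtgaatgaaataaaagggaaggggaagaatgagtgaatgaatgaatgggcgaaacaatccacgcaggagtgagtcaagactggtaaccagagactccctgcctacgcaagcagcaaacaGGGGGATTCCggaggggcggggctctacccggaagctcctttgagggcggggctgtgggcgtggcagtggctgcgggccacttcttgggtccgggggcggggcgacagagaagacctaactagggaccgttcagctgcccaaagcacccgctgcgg
Nfkb2, chr19:46304487-46304786, plus strand: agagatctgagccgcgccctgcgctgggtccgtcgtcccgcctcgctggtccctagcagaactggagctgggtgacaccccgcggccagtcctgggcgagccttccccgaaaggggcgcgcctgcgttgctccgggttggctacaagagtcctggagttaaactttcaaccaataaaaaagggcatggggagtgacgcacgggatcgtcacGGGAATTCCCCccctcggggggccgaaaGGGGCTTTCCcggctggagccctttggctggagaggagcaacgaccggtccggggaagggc
Icam1, chr9:21015690-21015989, plus strand: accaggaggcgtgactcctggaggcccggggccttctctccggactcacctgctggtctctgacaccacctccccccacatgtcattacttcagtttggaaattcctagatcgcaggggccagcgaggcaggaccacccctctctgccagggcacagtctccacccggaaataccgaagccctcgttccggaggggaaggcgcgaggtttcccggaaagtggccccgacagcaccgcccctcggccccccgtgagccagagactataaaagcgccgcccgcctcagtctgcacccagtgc
Birc3, chr9:7873121-7873420, minus strand: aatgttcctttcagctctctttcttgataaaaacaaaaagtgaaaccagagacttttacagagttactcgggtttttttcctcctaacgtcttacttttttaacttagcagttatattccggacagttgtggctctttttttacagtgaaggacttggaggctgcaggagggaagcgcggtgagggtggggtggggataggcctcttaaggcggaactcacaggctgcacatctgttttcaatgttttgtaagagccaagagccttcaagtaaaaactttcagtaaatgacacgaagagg
In Nfkbia the match lay at bases -29 to -20 from the start, on the opposite strand. Tnfaip3 had a match at -125 to -116 and another at -12 to -3. The match of Nfkbie lay at -106 to -97. The Nfkb2 window had overlapping matches between -39 and -29 and another at -11 to -2, while 2 further starts of Nfkb2 had a match each at 11 to 20 and at -225 to -216, which is the same stretch of the genome, and the first of them another at -236 to -227. The letters TATAAA, which occur in 13.6% of all windows, were present in those of Icam1, Nfkbia and Tnfaip3. They lay at 14 to 19 in Icam1, at 20 to 25 on the opposite strand in Nfkbia, and at -225 to -220 in Tnfaip3. These matches are a description of the sequence and no measurement of binding.

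**Figure D1:**
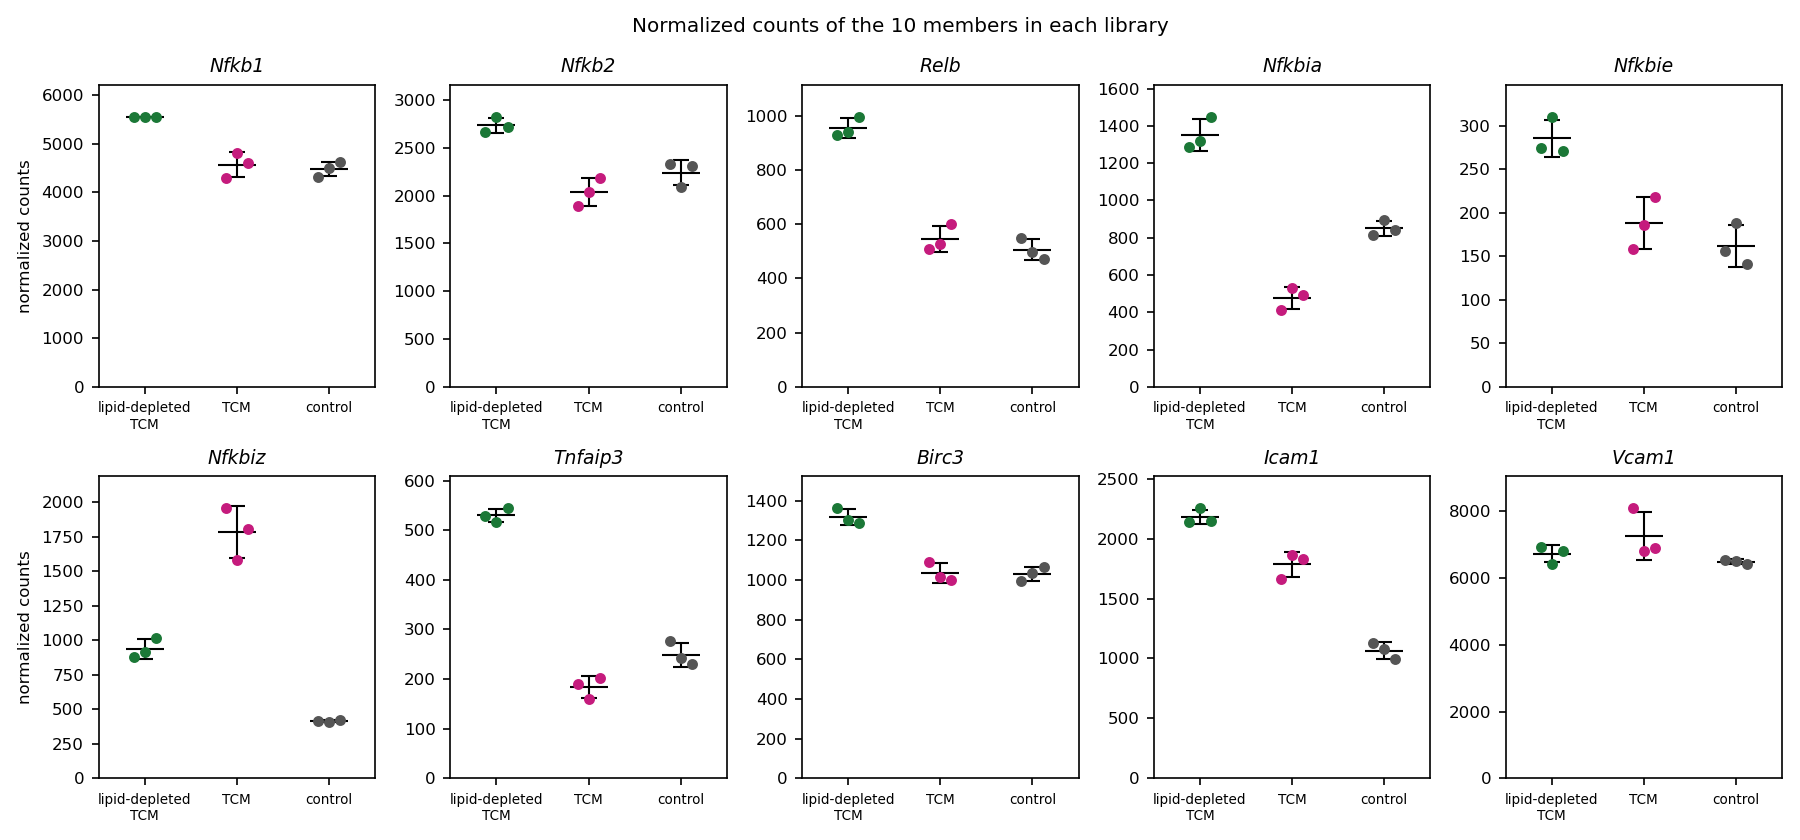
Normalized counts of the 10 members in each library (points), with the mean and SD of 3 libraries (bars), for lipid-depleted TCM, TCM and control, all axes starting at 0. Relb, Nfkbia, Nfkbie and Tnfaip3 are highest in lipid-depleted TCM, Nfkbiz is highest in TCM at 1582 to 1955, and Vcam1 lies between 6413 and 8088 in every library.

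The members fell into 5 patterns over the 3 groups, described first because each comparison below shows one side of them. Nfkb1, Nfkb2, Relb, Nfkbie and Birc3 were higher in lipid-depleted TCM than in both other groups, while TCM and control overlapped. Nfkbia and Tnfaip3 were lower in TCM than in control and higher than control in lipid-depleted TCM. Nfkbiz was highest in TCM and intermediate in lipid-depleted TCM. Icam1 was highest in lipid-depleted TCM and intermediate in TCM. Vcam1 varied little. The comparisons share libraries, so these patterns are a description of 3 groups and not independent results.

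The comparison of TCM with control addresses the effect of the tumor cells' medium. Nfkbiz rose 4.26-fold and Icam1 1.67-fold, Nfkbia and Tnfaip3 fell, and none of the 3 subunit genes passed the test. Called means an adjusted p below 0.05 in limma, fitted on log2(normalized count + 1) over all 16950 genes tested with Benjamini-Hochberg adjustment, and fold changes are on that scale. In bulk samples, fewer cells of a type and less RNA per cell cannot be told apart. Of the 10 members, 3 were called higher and 2 lower, so 5 of 10 against 60.5% of all genes tested, 29.5% being called higher and 31% lower. The members' share is near that background, and their median change of 0.07 on the log2 scale stood beside -0.00 over all genes tested. With all libraries brought to 1 total, the all-gene median shifted to 0.16 (log2) and 9 of 10 members were called, 7 higher and 2 lower; the 4 added calls were Nfkb1 at 0.18, Relb at 0.26, Nfkbie at 0.37 and Birc3 at 0.16, values to be read against that shift. The groups did not overlap for 5 of 10 members, against 63.9% of all genes tested. Over all genes that scaling made 7255 calls higher and 3685 lower, against 4995 and 5253 with the deposited scaling.

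The subunit genes differed little between TCM and control. Nfkb1 (ENSMUSG00000028163.17, chromosome 3, 135584655 to 135691547, minus strand, GRCm38), which encodes the precursor of the p50 subunit, had 4286, 4802 and 4605 normalized counts in TCM, against 4319, 4496 and 4621 in control. The log2 difference was 0.03 with a 95% interval of -0.08 to 0.13. Nfkb2 (ENSMUSG00000025225.15, chromosome 19, 46304320 to 46312385, plus strand), the precursor of p52 of the non-canonical branch, had 1889, 2036 and 2179.7 in TCM, against 2328, 2091 and 2306 in control. Its groups overlapped, and its log2 difference of -0.14 (limma adjusted p = 0.066) became 0.02 with libraries scaled to the same total. Without control replicate 2 or without TCM replicate 3 it was called lower, at -0.19 (limma adjusted p = 0.029 and 0.021). Relb (ENSMUSG00000002983.17, chromosome 7, 19606217 to 19629438, minus strand), the partner of p52, had 509, 526 and 601 in TCM, against 548, 499 and 470.3 in control, a log2 difference of 0.11 with a 95% interval of -0.07 to 0.29. Nfkb2 overlaps the gene Psd on the other strand, which had 211 to 567 reads per library against at least 1806 for Nfkb2. The kit is stranded but the strand setting of the counting is not given in the sources used here.

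Nfkbia and Tnfaip3 fell under TCM, while Nfkbiz, the gene of a nuclear IkB protein, rose. Nfkbia (ENSMUSG00000021025.8, chromosome 12, 55489410 to 55492647, minus strand), the gene of IkB-alpha, the classical inhibitor that NF-kB itself induces, had 412, 528 and 490.1 normalized counts in TCM, against 817, 893 and 841 in control. No TCM library reached a control library, and its log2 change of -0.84 (SE 0.09) had a limma adjusted p of 3.7e-06. Tnfaip3 (ENSMUSG00000019850.11, chromosome 10, 19000910 to 19015657, minus strand) encodes a ubiquitin-editing enzyme that shuts off signals upstream of the IkB kinases. It had 189, 159.9 and 202 normalized counts in TCM, against 276, 242 and 229.7 in control. This log2 change of -0.44 (SE 0.11) had a limma adjusted p of 0.0031. Nfkbiz (ENSMUSG00000035356.17, chromosome 16, 55811375 to 55838899, minus strand) encodes IkB-zeta, a nuclear IkB protein that acts on promoters together with p50 and is needed for a second set of targets. It went the other way, with 1955, 1582 and 1808 in TCM, against 415, 409.9 and 421 in control. The groups lay far apart, the log2 change being 2.09 (SE 0.08, limma adjusted p = 3.2e-10), the 556th in size of the 16950 genes tested.

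For the other feedback genes, TCM and control overlapped. Nfkbie (ENSMUSG00000023947.8, chromosome 17, 45555703 to 45563169, plus strand), the gene of IkB-epsilon, had 159, 186 and 219 normalized counts in TCM, against 156, 189 and 141 in control. The log2 difference of 0.21 had a 95% interval of -0.09 to 0.51, and without TCM replicate 1 it was called at 0.33 (limma adjusted p = 0.048). Birc3 (ENSMUSG00000032000.17, chromosome 9, 7848699 to 7873186, minus strand), a ubiquitin ligase of the TNF receptor complex and an inhibitor of apoptosis, had 1091, 1014 and 1000.3 in TCM, against 994, 1036 and 1064 in control. Its log2 difference was 0.00 with a 95% interval of -0.12 to 0.13.

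The adhesion genes responded unequally to TCM. Icam1 (ENSMUSG00000037405.8, chromosome 9, 21015985 to 21028817, plus strand), a ligand of leukocyte beta-integrins, had 1664, 1864 and 1826 normalized counts in TCM, against 1126, 1079 and 993 in control. The lowest TCM library lay above the highest control library, and its log2 change of 0.74 (SE 0.06) had a limma adjusted p of 4.4e-07. Vcam1 (ENSMUSG00000027962.14, chromosome 3, 116109949 to 116129688, minus strand), a ligand of integrins on lymphocytes and monocytes, had 8088, 6809 and 6888 in TCM, against 6548, 6508 and 6413 in control. TCM replicate 1 stood above the other two, and the rise of 0.16 on the log2 scale passed the test narrowly (limma adjusted p = 0.039). Without that library the difference was 0.08 (limma adjusted p = 0.11), and the call was also lost without any 1 of the control replicates (adjusted p = 0.077, 0.084 and 0.1). It was lost as well without lipid-depleted TCM replicate 3 (adjusted p = 0.056), with no filter (adjusted p = 0.056) and when only TCM and control libraries entered the model (adjusted p = 0.068).

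**Figure D2:**
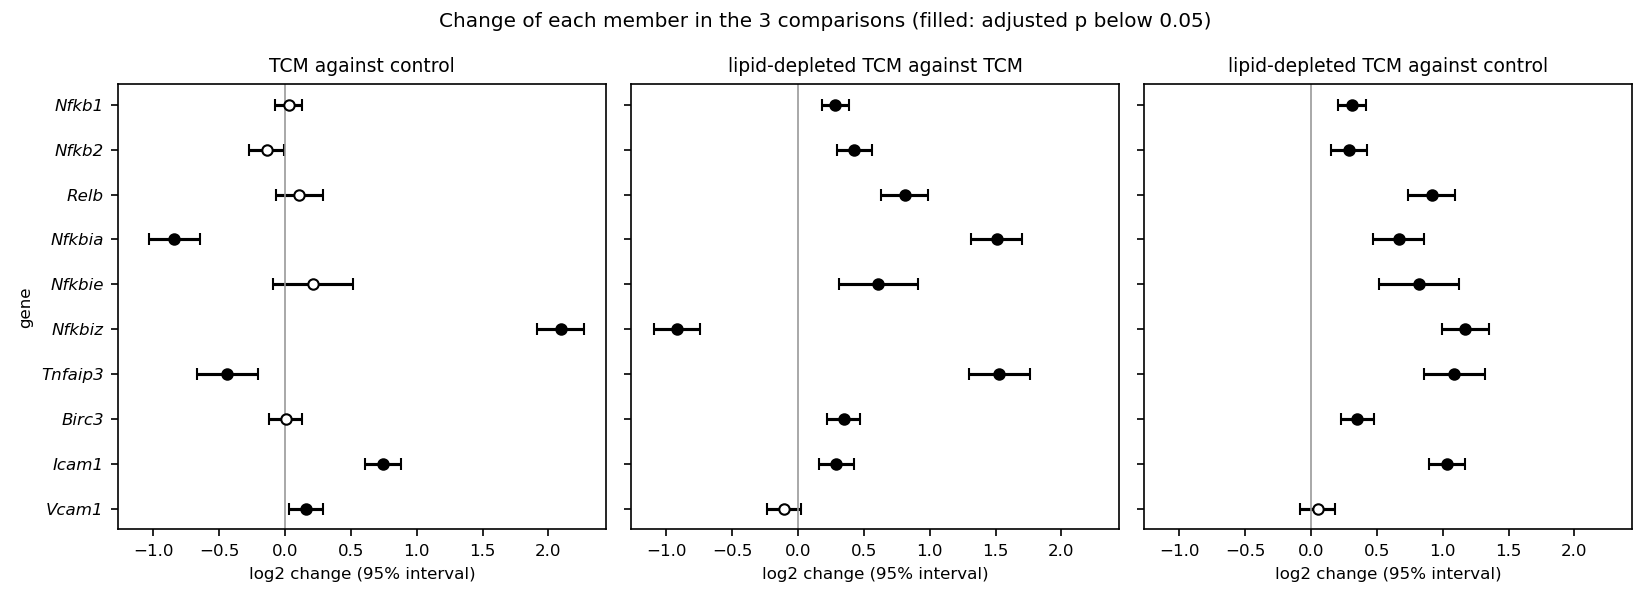
Log2 change of each member with its 95% interval from limma, for the 3 pairs of groups; filled points have an adjusted p below 0.05. Nfkbiz lies at 2.09 for TCM against control and at -0.92 for lipid-depleted TCM against TCM, whereas Nfkbia lies at -0.84 and 1.51.

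Lipid-depleted TCM against TCM asks which levels differ once TCM has passed through the reagent. Loss of lipids and other effects of the reagent cannot be told apart here. Most members rose: the largest rises were those of Tnfaip3, 2.89-fold, and Nfkbia, 2.84-fold, followed by Relb at 1.75-fold, and Nfkbiz fell. Of the 10 members, 8 were called higher, 1 lower and 1 was not called, so 9 of 10 against 45.2% of all genes tested, of which 22.7% were called higher. The members' median change was 0.39 on the log2 scale, against 0.01 over all genes tested. Because the members were chosen with earlier results of these data known, these shares are a description and no independent test. The count of 9 was the same in all 19 alternative analyses, including each of those that left out 1 library.

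Nfkbia had 1285, 1319 and 1449 normalized counts in lipid-depleted TCM, against 412, 528 and 490.1 in TCM. Every lipid-depleted library was more than double any TCM library, with a log2 change of 1.51 (SE 0.09, limma adjusted p = 4.4e-08). Tnfaip3 had 529, 517 and 544 normalized counts in lipid-depleted TCM, against 189, 159.9 and 202 in TCM, a log2 change of 1.53 (SE 0.11, limma adjusted p = 2.1e-07). By size of change the pair ranked 342nd and 324th of 16950 genes. Nfkbie had 275, 310.2 and 272 in lipid-depleted TCM, against 159, 186 and 219 in TCM. It rose by 0.61 on the log2 scale (limma adjusted p = 0.0033). Birc3 rose by 0.35 (limma adjusted p = 0.00035), with 1361, 1303 and 1285 in lipid-depleted TCM, against 1091, 1014 and 1000.3 in TCM. Nfkbiz had 879, 918 and 1019 in lipid-depleted TCM, against 1955, 1582 and 1808 in TCM. It was the only member called lower, with a log2 change of -0.92 (SE 0.08, limma adjusted p = 1.8e-06).

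All 3 subunit genes were higher in lipid-depleted TCM than in TCM. Relb had 929, 939.9 and 996 normalized counts in lipid-depleted TCM, against 509, 526 and 601 in TCM, a log2 change of 0.81 (SE 0.08, limma adjusted p = 5.9e-06). Nfkb2 had 2664, 2824 and 2713, against 1889, 2036 and 2179.7 in TCM, a log2 change of 0.43 (SE 0.06, limma adjusted p = 0.00012). Nfkb1 changed least of the 3, with 5549, 5549.9 and 5541 in lipid-depleted TCM, against 4286, 4802 and 4605 in TCM. Its log2 change was 0.28 (SE 0.05, limma adjusted p = 0.00043). The groups did not overlap for any of the 3, and for 9 of 10 members in all, against 52.4% of all genes tested.

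Of the adhesion genes, Icam1 rose a further step. It had 2142, 2252 and 2149 normalized counts in lipid-depleted TCM, against 1664, 1864 and 1826 in TCM, a log2 change of 0.29 (SE 0.06, limma adjusted p = 0.0022). Vcam1 had 6936, 6435 and 6813, against 8088, 6809 and 6888 in TCM, groups that overlapped. Its log2 difference was -0.11 with a 95% interval of -0.24 to 0.03.

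Lipid-depleted TCM against control shows the net state of the pathway genes after the lipid-depleted medium. Of the 10 members, 9 were called higher and none lower, against 60% of all genes tested being called and 29.4% called higher, and the members' median was 0.74 on the log2 scale beside 0.00 over all genes. The groups did not overlap for 9 of 10 members, against 71.2% of all genes tested. The limit from the choice of members holds here too. Vcam1 was the member not called, at 0.05 with a 95% interval of -0.08 to 0.18, and with libraries scaled to the same total it too was called higher, at 0.20 (limma adjusted p = 0.019), where the median of all genes was 0.15. Nfkbiz was 2.25-fold higher, Tnfaip3 2.13-fold and Icam1 2.05-fold, with limma adjusted p of 6.9e-08, 1.8e-06 and 1.7e-08. Relb was 1.89-fold and Nfkbie 1.77-fold higher, with limma adjusted p of 7.6e-07 and 0.00023. Nfkbia was 1.59-fold higher (limma adjusted p = 2.9e-05), having been 0.558-fold of control in TCM. Birc3, Nfkb1 and Nfkb2 were 1.28-, 1.24- and 1.22-fold higher, with limma adjusted p of 0.00017, 0.00012 and 0.0014. The summed level of the 10 members was 22367 to 22781 normalized counts in lipid-depleted TCM, 19508 to 20241 in TCM and 17444 to 17527 in control.

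Levels of different genes were compared per kilobase of annotated exon. Nfkbia had 839 normalized counts per kilobase in lipid-depleted TCM, 296 in TCM and 528 in control, which placed it first, sixth and second among the 10 members. Vcam1 was first in TCM and control, at 819 and 732 per kilobase, and second in lipid-depleted TCM at 759. Nfkbiz had 187 in lipid-depleted TCM, 355 in TCM and 82.8 in control. Tnfaip3 was lowest in all 3 groups, at 73.3, 25.4 and 34.5 in the same order. Rela, the gene of the main activating subunit, stood above all 10 members, at 1264, 1278 and 1332 per kilobase.

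A ratio of 2 genes within a library does not depend on how libraries are scaled. The ratio of Nfkbia to Rela was -1.52 ± 0.10 (log2) in lipid-depleted TCM (SD, n = 3), -3.05 ± 0.10 in TCM and -2.27 ± 0.05 in control. The ratio of Relb to Rela was -2.02 ± 0.06, -2.85 ± 0.09 and -3.02 ± 0.10 in the same order. Nfkbiz exceeded Nfkbia in counts in TCM, with a log2 ratio of 1.90 ± 0.33, but not in lipid-depleted TCM at -0.53 ± 0.02 or in control at -1.03 ± 0.08. Icam1 gained on Vcam1, the log2 ratio being -1.62 ± 0.10 in lipid-depleted TCM, -2.02 ± 0.23 in TCM and -2.61 ± 0.08 in control. The ratio of Tnfaip3 to Nfkbia was -1.35 ± 0.07 in lipid-depleted TCM, -1.37 ± 0.31 in TCM and -1.77 ± 0.18 in control. Birc3 against its neighbour and relative Birc2 was at -0.11 ± 0.05 in lipid-depleted TCM, -0.26 ± 0.03 in TCM and -0.36 ± 0.07 in control. Birc2 itself averaged 1423 ± 15.8, 1245 ± 86 and 1325 ± 45.4 normalized counts in the same order. In the two-sided exact permutation test, 3 libraries against 3 cannot go below p = 0.1, which became 0.141 after adjustment over the 24 tests on 8 ratios, so no ratio could pass a threshold of 0.05.

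**Figure D3:**
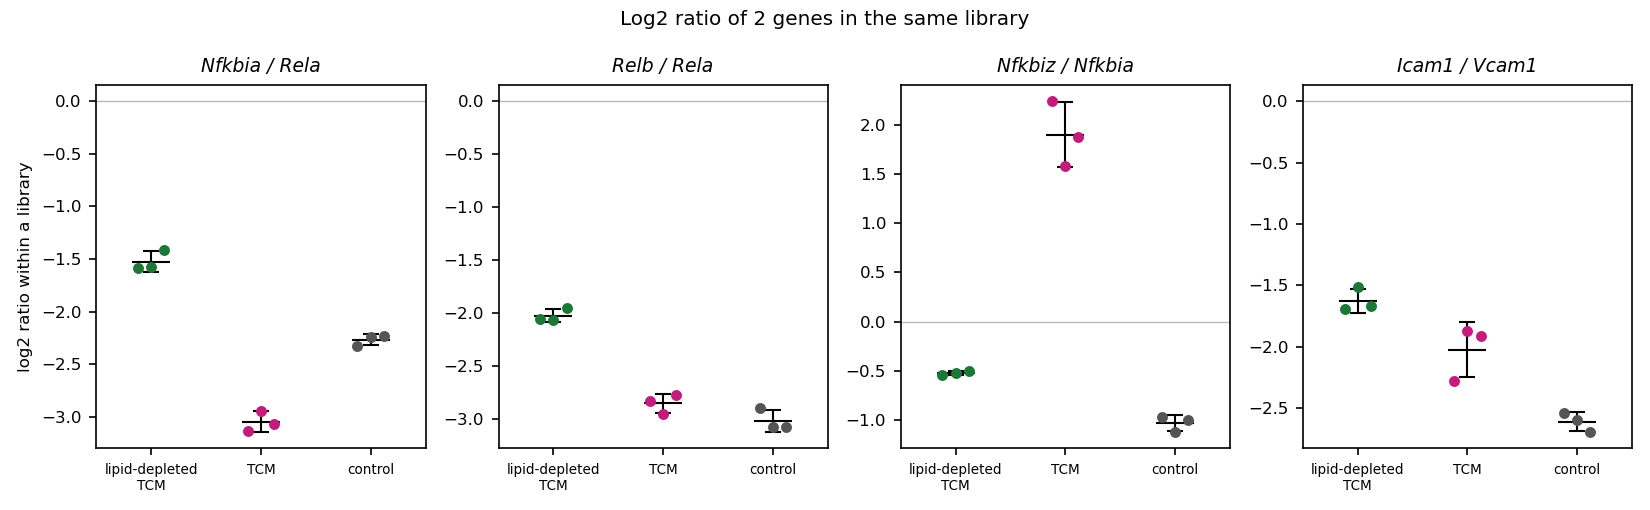
Log2 ratio of 2 genes in each library (points) with the mean and SD of 3 libraries (bars) for lipid-depleted TCM, TCM and control; the vertical axes differ between panels and the grey line marks equal counts. Nfkbia to Rela is lowest in TCM at -3.05, where Nfkbiz to Nfkbia is highest at 1.90.

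The other 2 subunit genes were Rela and Rel. Rela had 3867, 3933 and 3852 normalized counts in lipid-depleted TCM, 3613, 4061 and 4106 in TCM, and 4093, 4219.7 and 3965 in control, and was not called in any comparison. Its log2 difference in TCM against control was -0.06 with the deposited scaling and 0.10 with libraries scaled to the same total. Rel, a subunit best known from lymphocytes, had 545, 511 and 557 in lipid-depleted TCM, 442, 466 and 468 in TCM, and 681, 676 and 702 in control. It fell by 0.58 on the log2 scale in TCM against control (limma adjusted p = 8.0e-06) and rose by 0.23 in lipid-depleted TCM against TCM (limma adjusted p = 0.014), a call lost without lipid-depleted TCM replicate 3 (limma adjusted p = 0.064).

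In the lists of other pathway genes that follow, counts of called genes are to be read against the 60.5% of all genes called in TCM against control, 45.2% in lipid-depleted TCM against TCM and 60% in lipid-depleted TCM against control. Among the other IkB family genes, 2 of 4 rose in TCM against control and none fell. Bcl3, a nuclear IkB protein that binds p50 and p52 dimers, had 567, 634 and 651 normalized counts in lipid-depleted TCM, 1105, 1883 and 1798 in TCM, and 339, 344 and 306 in control. The order of its groups was that of Nfkbiz, with log2 changes of 2.23 in TCM against control and -1.33 in lipid-depleted TCM against TCM (limma adjusted p = 8.6e-08 and 2.3e-05). TCM replicate 1 was the lowest of its group for Bcl3 and the highest for Nfkbiz. Nfkbid, another nuclear IkB gene, averaged 50 ± 3.92 in lipid-depleted TCM, 65.1 ± 2.2 in TCM and 30.8 ± 9.27 in control (SD, n = 3 each), and rose by 1.10 on the log2 scale in TCM against control (limma adjusted p = 0.00076). Nfkbib and Nfkbil1, which each overlap a gene on the other strand, were not called in any comparison with all libraries, and TCM replicate 1 stood apart for both. Nfkbib had 669, 686 and 696 in lipid-depleted TCM, 443, 890.3 and 858 in TCM, and 639.6, 651 and 569.8 in control. Without that library Nfkbib was called 0.50 higher and Nfkbil1 0.49 higher in TCM than in control (limma adjusted p = 2.7e-05 and 0.00041), and both were called lower in lipid-depleted TCM than in TCM, at -0.35 and -0.44 (limma adjusted p = 9.0e-04 and 0.0014).

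Of 12 tested feedback inhibitors outside the members, 5 rose and 3 fell in TCM against control, and 1 rose and 2 fell in lipid-depleted TCM against TCM. The 8 of 12 called are near the share of all genes, and the 3 of 12 are below it. The one that rose there was Tnip1, which encodes a partner of the Tnfaip3 protein. It had 2073, 2257 and 2034 normalized counts in lipid-depleted TCM, 1243, 1470.2 and 1375 in TCM, and 2117, 2089 and 2022 in control. It fell by 0.61 on the log2 scale in TCM against control (limma adjusted p = 4.2e-06). In lipid-depleted TCM against TCM it rose by 0.64 (limma adjusted p = 6.3e-06), so that TCM held its lowest values, as for Nfkbia and Tnfaip3. Cyld, a deubiquitinase, and Traf3ip2, an adaptor of interleukin 17 receptors, were the pair that fell there, by 0.23 and 0.48 (limma adjusted p = 0.0033 and 0.00013). Irak3 is a brake on Toll-like receptor signals, and Zc3h12a a ribonuclease that degrades inflammatory transcripts. They were 0.75 and 0.68 higher in lipid-depleted TCM than in control (limma adjusted p = 5.1e-05 and 0.00035). TCM was intermediate for both, Irak3 averaging 776 in lipid-depleted TCM, 670 in TCM and 459 in control, and Zc3h12a 462, 380 and 289. In lipid-depleted TCM against TCM neither was called (limma adjusted p = 0.11 and 0.066), though each was in some alternatives. Irak3 overlaps Tmbim4 on the other strand and Traf3ip2 an antisense gene, which makes their counts uncertain.

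Kinases and adaptors of the pathway were called about as often as all genes in TCM against control, in 14 of 22 cases. In TCM against control 6 of 22 tested rose and 8 fell, in lipid-depleted TCM against TCM 8 rose and 6 fell, and in lipid-depleted TCM against control 4 rose and 4 fell. The medians were -0.02, -0.05 and -0.02 on the log2 scale. The share called was above that of all genes in lipid-depleted TCM against TCM and below it in lipid-depleted TCM against control. Traf5, an adaptor of TNF family receptors, had 506, 512 and 582 normalized counts in lipid-depleted TCM, 377, 496 and 503 in TCM, and 1206, 1190.4 and 1215 in control. It fell by 1.40 in TCM against control (limma adjusted p = 1.2e-07), and a processed pseudogene within it had more reads than Traf5 itself, so its counts are uncertain. Tbk1, an IkB kinase relative that also acts on interferon genes, rose by 0.50 in TCM against control (limma adjusted p = 6.8e-06). Irak2 encodes a kinase of interleukin 1 and Toll-like receptor signals, and Tradd an adaptor of the TNF receptor. They rose in lipid-depleted TCM against TCM by 0.39 and 0.32 (limma adjusted p = 0.00076 and 0.0054). TCM was the lowest group for both. Irak2 averaged 1115 in lipid-depleted TCM, 854 in TCM and 1142 in control, and Tradd averaged 589, 471 and 602 in the same order. Ikbkg and Ripk1 were lower in lipid-depleted TCM than in control, but each overlaps an abundant gene on the other strand. The kinase genes Chuk, Ikbkb and Map3k14 were not called in any comparison with all libraries and the deposited scaling. With libraries scaled to the same total, Ikbkb and Map3k14 were called 0.20 and 0.25 higher in TCM than in control (limma adjusted p = 0.0012 and 0.010). The all-gene median was then 0.16. Ikbkb was also called there in lipid-depleted TCM against control, at 0.13 (limma adjusted p = 0.015). Chuk was called at -0.09 in that comparison with only its 2 groups in the model (limma adjusted p = 0.026). Without TCM replicate 1, Chuk was called lower in TCM than in control, at -0.16 (limma adjusted p = 0.0043) and Map3k14 lower in lipid-depleted TCM than in TCM, at -0.23 (limma adjusted p = 0.014).

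**Figure D4:**
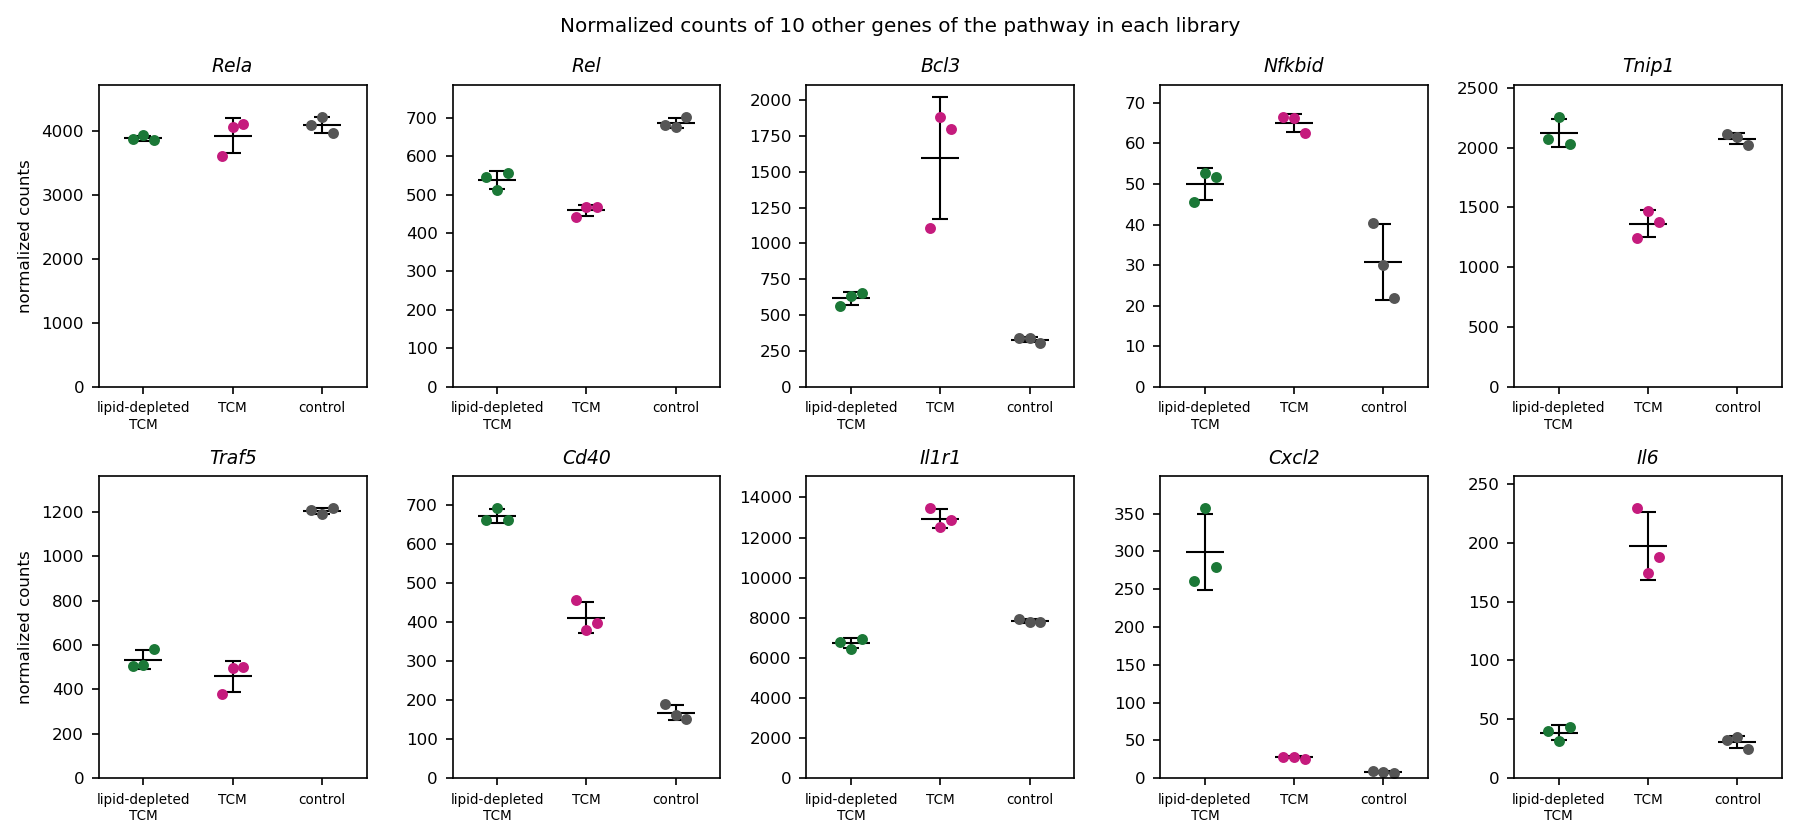
Normalized counts of 10 other genes of the pathway in each library (points) with the mean and SD of 3 libraries (bars), for lipid-depleted TCM, TCM and control, all axes starting at 0. Bcl3 is highest in TCM at 1105 to 1883, Tnip1 is lowest there at 1243 to 1470.2, and Rela lies between 3613 and 4219.7 in every library.

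Among receptors that feed the pathway, 11 of 12 were called in TCM against control, while the 6 called in lipid-depleted TCM against TCM are near the share of all genes. Of 12 tested, 7 rose and 4 fell in TCM against control, 3 rose and 3 fell in lipid-depleted TCM against TCM, and 6 rose and 4 fell in lipid-depleted TCM against control. Cd40, a receptor of the TNF family that signals through both branches of NF-kB, had 662, 692 and 662 normalized counts in lipid-depleted TCM, 457, 380.3 and 399.6 in TCM, and 190.2, 163 and 152 in control. It rose by 1.29 on the log2 scale in TCM against control (limma adjusted p = 2.2e-07). Lipid-depleted TCM stood a further 0.71 above TCM (limma adjusted p = 1.0e-04). Tlr4, the receptor of lipopolysaccharide, averaged 889.9 ± 23.8, 559 ± 66.7 and 345 ± 18.5 in the same order of groups (SD, n = 3 each), an order shared with Icam1. Il1r1, the interleukin 1 receptor, had 6795, 6446 and 6956 in lipid-depleted TCM, 13455, 12514 and 12885 in TCM, and 7941, 7788 and 7799.7 in control. It was 0.72 higher in TCM than in control (limma adjusted p = 1.7e-08). Lipid-depleted TCM stood 0.94 below TCM (limma adjusted p = 5.7e-09). Tnfrsf11a, the receptor of RANK ligand, fell by 1.08 in TCM against control (limma adjusted p = 1.1e-06). Tnfrsf13c, the BAFF receptor of B cells, had 4.27 ± 2.97 in lipid-depleted TCM, 4.14 ± 2.44 in TCM and 13.9 ± 3.54 in control (SD, n = 3 each). It passed the filter only through control, where it was high, so its calls, included in the counts above, are no support for a fall.

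Of 12 ligand genes, 4 passed the filter. The most abundant was Tnfsf12, which encodes TWEAK and averaged 315 in lipid-depleted TCM, 301 in TCM and 263 in control and was not called in TCM against control. Il1b had no read in any library, while Tnf had none in TCM and at most 4.96 normalized counts in any library. Tnfsf15, a TNF family cytokine, had 5.79, 2.03 and 5.86 normalized counts in lipid-depleted TCM, 0, 0 and 2.89 in TCM, and 104, 98.4 and 101 in control. Tnfsf11, which encodes RANK ligand, averaged 21.3 ± 4.44 in lipid-depleted TCM, 54.6 ± 2.12 in TCM and 66.6 ± 16.9 in control (SD, n = 3 each). It fell by 1.34 (log2) in lipid-depleted TCM against TCM (limma adjusted p = 0.00033). Il18, an interleukin 1 family cytokine, fell by 1.05 in TCM against control (limma adjusted p = 0.0015).

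Other adhesion molecules were called about as often as all genes when either medium was set against control. Of 9 tested, 2 rose and 4 fell in TCM against control, and the same numbers stood for lipid-depleted TCM against control, while 3 rose and 1 fell in lipid-depleted TCM against TCM. Alcam, an activated leukocyte adhesion molecule, had 257, 207 and 252 normalized counts in lipid-depleted TCM, 453, 528 and 453 in TCM, and 1765, 1829.6 and 1783 in control. It fell by 1.91 on the log2 scale in TCM against control (limma adjusted p = 2.5e-09). Lipid-depleted TCM stood a further 1.00 below TCM (limma adjusted p = 2.7e-06). Mcam and the hyaluronan receptor Cd44 fell by 1.22 and 0.95 in TCM against control (limma adjusted p = 2.8e-10 and 1.7e-09). F11r, a junctional adhesion molecule, rose by 0.91 in TCM against control (limma adjusted p = 3.9e-06), and its relative Jam2 rose by 0.34 in lipid-depleted TCM against TCM (limma adjusted p = 0.0049). The endothelial selectin genes Sele and Selp had at most 2.48 and 1.9 normalized counts in any library.

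Markers of other cell types moved beside these adhesion genes, and their part in the results was not tested. Of 9 tested pericyte markers 2 rose and 7 fell in TCM against control. Their summed level was 10167 to 10427 normalized counts in lipid-depleted TCM, 6454 to 7985 in TCM and 20234 to 22025 in control. Of 6 tested endothelial markers 3 rose and none fell in lipid-depleted TCM against TCM, with sums of 516 to 542 in lipid-depleted TCM, 401 to 423 in TCM and 411 to 445 in control. Leukocyte markers differed in pattern. Lyz2 averaged 365 in lipid-depleted TCM, 127 in TCM and 204 in control, Cd68 averaged 53 in lipid-depleted TCM, 92 in TCM and 43 in control, and Csf1r averaged 11.8, 16.5 and 78.9 in the same order. Leukocyte marker sums, most of them from Lyz2 in lipid-depleted TCM, were 458 to 474 in lipid-depleted TCM, 255 to 305 in TCM and 313 to 399 in control, with Cd3e at 0 in every library and Itgam at 0 in TCM and control. Of 7 tested keratinocyte markers none rose and 2 fell in TCM against control, and of 7 tested melanocyte markers 2 rose and 2 fell. Among keratinocyte markers Sfn averaged 164 in lipid-depleted TCM, 163 in TCM and 556 in control. Among melanocyte markers Mitf averaged 716 in lipid-depleted TCM, 604 in TCM and 511 in control. Sfn and Mitf made up most of the sums of their lists. The keratinocyte and melanocyte sums were 269 to 314 and 1022 to 1139.9 in lipid-depleted TCM, 299 to 323 and 886 to 958 in TCM, and 754 to 794 and 769 to 879 in control.

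Further NF-kB targets showed several patterns. Of 27 tested, 14 rose and 8 fell in TCM against control, 13 rose and 7 fell in lipid-depleted TCM against TCM, and 18 rose and 5 fell in lipid-depleted TCM against control. The medians were 0.21, 0.17 and 0.64 on the log2 scale. Il6 and Cxcl1, a cytokine and a neutrophil chemokine, were highest in TCM, as Nfkbiz was. Il6 averaged 38.6 ± 6.47 normalized counts in lipid-depleted TCM, 197 ± 28.7 in TCM and 30.9 ± 5.09 in control (SD, n = 3 each). Cxcl1 averaged 546 ± 42.5, 896 ± 49.2 and 153 ± 23.6 in the same order. Cxcl10 and Saa3 were highest in lipid-depleted TCM and lowest in TCM on average, as Nfkbia and Tnfaip3 were, although control and TCM overlapped for Cxcl10. Cxcl10 averaged 744 ± 81.8 in lipid-depleted TCM, 6.97 ± 4.87 in TCM and 33.4 ± 35.9 in control. Cxcl2, another neutrophil chemokine, had the order of Icam1, at 299 ± 50.7, 27.6 ± 1.42 and 8.08 ± 1.5. So did Lcn2, an iron-binding secreted protein, at 44 ± 9.93, 6.67 ± 0.896 and 1.14 ± 1.16. Lcn2 passed the filter only through lipid-depleted TCM, where it was high, so its calls, included in the counts above, are no support for a rise. The same holds for Ccl20, also counted there. Its change in TCM against control, -1.54 on the log2 scale (limma adjusted p = 0.030), compared values near the floor. With 5 in place of 1 added before the log it was -0.55 and not called (limma adjusted p = 0.11). Ccl5, also in those counts, was near the floor in control, at 3.19, 1.16 and 5.47 normalized counts, and in TCM, at 1.90 in replicate 1. It too passed the filter only through lipid-depleted TCM, so its calls are no support for a rise. Mmp3, a matrix protease, had 124, 122 and 152 normalized counts in lipid-depleted TCM, 185, 102 and 114 in TCM, and 22.3, 16.2 and 3.28 in control. It rose by 3.44 on the log2 scale in TCM against control, and the difference between lipid-depleted TCM and TCM was 0.03 (limma adjusted p = 0.96). Without control replicate 3, the lowest control library, the rise in TCM was 2.7.

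The genes with the pattern most like a member were found by the distance between the 9 log2 values, each centred on its control mean, over 13855 genes with a mean of at least 50 normalized counts. Pcsk6, Kazn and Hacd4 were nearest to Nfkbia, at distances of 0.41, 0.44 and 0.45 on the log2 scale. Thap6, Hs1bp3 and Gaa were nearest to Icam1, at 0.10, 0.18 and 0.18. Zfp445, Uba3 and Matr3 were nearest to Vcam1, at 0.09, 0.11 and 0.11. None of these is in the pathway lists used here, and likeness over 9 libraries in 3 groups says nothing of shared control.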

How the data were processed

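The authors deposited 1 table of normalized counts, a signal in which the reads of each gene are divided by a size factor of the library. The submitters' processing notes name STAR 2.7.9a as well as Trim Galore 0.6.6, FastQC and DESeq2, with build mm10. Which program counted reads, and on which annotation, is not given in the sources used here. Within a tolerance of 0.01 reads, 100% of values above 0 came out as whole reads. Names and positions came from GENCODE M21 (GRCm38), matching 55141 of 55401 genes without the version. Genes with at least 10 normalized counts in at least 3 libraries were tested with limma 3.58.1 in R 4.3.3 on log2(value + 1), with 3 group means, a variance trend and 6 residual degrees of freedom. The code was tested on simulated data. edgeR 4.0.16 and DESeq2 1.42.0 on the recovered reads were alternatives, and the edgeR test called 10232, 7744 and 10174 genes. No replicate pair agreed within counting noise (chi-square per degree of freedom at least 2.43).

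The members and the lists of pathway and marker genes were chosen with earlier results of these data known. Named genes are the members, Rela, Rel, Birc2, per list and comparison up to 3 called genes with the largest change and a mean of at least 10, and the nearest 3 genes by pattern. Genes named beyond these were picked with their values in view.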

Additional observations from a re-analysis of the deposited data

How the results depend on the processing

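Members called numbered 5 in TCM against control, 9 in lipid-depleted TCM against TCM, and 9 when lipid-depleted TCM was set against control; counts below keep this order. The count moved by over 1.5 times in 1 case, to 9 in TCM against control with libraries scaled to the same total. Leaving out 1 library gave 4 to 6, 9 to 9 and 9 to 9. The number of all genes called stayed within 1.5 times in all 57 cases. Of the 570 values of single members under alternatives, 555 stayed on the same side of the threshold, 7 lost a call, all for Vcam1 in TCM against control, and 8 gained one, and no called value changed sign. Differences in ratio kept their sign except that Nfkb2 to Nfkb1 in lipid-depleted TCM against control ran from -0.074 to 0.032 and Tnfaip3 to Nfkbia in lipid-depleted TCM against TCM from -0.15 to 0.15 on the log2 scale with 1 library left out. Samples with the same replicate number did not deviate together (correlations from -0.02 to 0.03). This gives no sign of pairing by number but cannot tell whether the samples were paired. With the replicate block limma called 9972, 7328 and 9961 genes, against 10248, 7664 and 10168 without it, and 5, 9 and 9 members. Replicate spread limits the smallest differences: the widest 95% interval among the members, that of Nfkbie in TCM against control, ran from -0.09 to 0.51 on the log2 scale. Among the values of other pathway genes under the same alternatives, 125 lost a call, 72 gained one, 30 called folds moved by over 1.5 times, and 2 changed sign between an uncalled and a called value.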
